A study of Mus musculus with 54 samples.

Results

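A set of 8 genes of the conducting airway epithelium was followed through mouse lungs injured with bleomycin: the secretoglobins Scgb1a1, Scgb3a1 and Scgb3a2, the enzymes Cyp2f2 and Aldh1a7, the secreted mucosal proteins Bpifa1 and Tff2, and the receptor subunit Gabrp. The 8 genes were chosen by symbol as genes of club and other secretory airway cells, out of 39313 named genes in the lung RNA-seq tables. Earlier results of these data were known at that choice, so the all-gene shares given below are a description and not an independent test. All 8 were found in each of the 3 tables and passed the filter on low values in each. The series holds 54 libraries, of which 30 are from whole lungs in 9 groups, 1 lung per library, and the other 24 are from cultured lung fibroblasts. Every lung came from a male wild-type C57BL/6 mouse aged 10 to 12 weeks. The fibroblasts came from younger mice, all under 10 weeks of age.

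The lungs belong to 3 experiments, each with its own uninjured group. In the water experiment, BLM_BCAA mice drank water with 3 mM branched-chain amino acids (BCAA) from 7 days before 1.25 mg/kg bleomycin (BLM) was given into the trachea, BLM_NW mice received the same bleomycin with normal water, and PBS_NW mice received saline, with lungs taken on day 14 and 3 mice per group. In the diet experiment, BLM_BCAA_free mice were switched on day 7 after 1.25 mg/kg bleomycin to a diet without BCAA for 14 days, BLM_ND mice stayed on normal diet, and PBS_ND mice received saline, with lungs taken on day 21 and 4 mice per group. In the BT2 experiment, BLM_BT2 mice received 3.5 mg/kg bleomycin and from day 3, over 11 days, BT2 at 20 mg/kg once a day into the peritoneum, BLM_DMSO mice were injected with 10% DMSO in its place, and PBS_DMSO mice were the uninjured group, with lungs taken on day 14 and 3 mice per group. BT2 is a small-molecule inhibitor of the kinase that switches off the branched-chain ketoacid dehydrogenase complex, the enzyme that commits BCAA to breakdown. The PBS_DMSO group carries DMSO in its title, while the text on the study's design gives only a normal diet for it, so whether these mice were injected with DMSO was not settled here.

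Club cells are the main secretory cells of the mouse bronchioles. They release secretoglobins into the airway lining fluid, detoxify inhaled chemicals through cytochrome P450 enzymes, and act as progenitors that renew both themselves and the ciliated cells. Secretory cells of the larger airways and submucosal glands share part of this repertoire and add antimicrobial and mucosal repair proteins such as Bpifa1 and Tff2. Bleomycin, a drug that breaks DNA, is widely used to cause lung injury and scarring in mice.

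Promoter sequences upstream of the annotated start were matched in RefSeq (GRCm38.p6) for 5 of the 8 genes. Levels of Scgb3a1 with Bpifa1 and of Cyp2f2 with Aldh1a7 moved together in the libraries, as did those of other pairs (8 of 28 passed the test given below). The promoters of these 4 genes are shown here. Each is the 250 bases before the start, 5′ to 3′ on the gene's own strand, and capitals mark matches on either strand to 4 motifs: the TATA box TATAAA, the C/EBP motif TTGCNNAA, the forkhead motif TGTTTNC and the NKX2 motif CAAGTG. The Scgb3a1 window is chr11:49663345-49663594 on the plus strand, the Bpifa1 window chr2:154142630-154142879 on the plus strand, the Cyp2f2 window chr7:27119705-27119954 on the plus strand and the Aldh1a7 window chr19:20727557-20727806 on the minus strand.
Scgb3a1: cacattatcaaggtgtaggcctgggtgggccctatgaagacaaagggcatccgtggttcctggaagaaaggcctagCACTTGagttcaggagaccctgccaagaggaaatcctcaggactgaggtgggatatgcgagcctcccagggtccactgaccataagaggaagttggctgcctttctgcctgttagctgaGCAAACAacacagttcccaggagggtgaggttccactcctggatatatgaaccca
Bpifa1: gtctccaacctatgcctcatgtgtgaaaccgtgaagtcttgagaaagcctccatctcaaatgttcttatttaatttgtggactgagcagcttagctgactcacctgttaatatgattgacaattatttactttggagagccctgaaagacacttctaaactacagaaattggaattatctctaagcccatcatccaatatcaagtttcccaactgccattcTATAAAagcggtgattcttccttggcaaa
Cyp2f2: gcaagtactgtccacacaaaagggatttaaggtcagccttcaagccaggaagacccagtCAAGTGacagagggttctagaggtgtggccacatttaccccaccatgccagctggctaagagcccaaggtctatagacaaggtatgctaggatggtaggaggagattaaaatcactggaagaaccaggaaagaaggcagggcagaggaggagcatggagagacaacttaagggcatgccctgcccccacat
Aldh1a7: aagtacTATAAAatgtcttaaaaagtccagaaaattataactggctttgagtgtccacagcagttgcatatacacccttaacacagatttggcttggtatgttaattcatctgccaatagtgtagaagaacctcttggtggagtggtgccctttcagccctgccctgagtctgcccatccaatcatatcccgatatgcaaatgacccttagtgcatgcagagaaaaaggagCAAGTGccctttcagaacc
Scgb3a1 held a forkhead match at base -55 and an NKX2 match at base -174 relative to the start, Bpifa1 held a TATA box at -29, Cyp2f2 an NKX2 match at -191, and Aldh1a7 an NKX2 match at -19 and a TATAAA at -244. The Gabrp window (chr11:33578958-33579207, minus strand) held none of the 4 motifs. Of all 32851 promoter windows of this length, 12.4% held the TATA box, 9.56% the C/EBP motif, 17.8% the forkhead motif and 11.6% the NKX2 motif, so each match is a description of the letters and not of a bound site.

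Values are TPM, transcript abundances that are scaled by gene length to the same total in every library, so depth is unknown and levels may be compared between genes. Between 17554 and 25632 genes were above 0 per lung. The lowest of these, BLM_BCAA_free replicate 3, also had 16.5% of its TPM on mitochondrial transcripts, against 4.39% to 5.68% in the other lungs of its group. In the same experiment the share was 12.3% to 17.3% in PBS_ND lungs and 4.43% to 5.31% in BLM_ND lungs. Thus 16.5% was high for a bleomycin lung of this experiment and within the range of its uninjured lungs. Alveolar type 2, alveolar type 1, ciliated and other club cell genes were present in every lung, and cardiac genes, listed because the extraction protocol mentions heart, summed to between 50.4 and 2001 TPM. PBS_ND lungs differed from the other uninjured lungs in their makeup, with 4137 to 5223 TPM of summed ciliated markers and 9209.7 to 13541 TPM of alveolar type 2 markers, set beside 1614 to 1907 and 40885 to 41629.8 TPM in PBS_NW and 1418 to 2332 and 47953 to 60922 TPM in PBS_DMSO. Of the 8 genes, Scgb3a2, Cyp2f2, Aldh1a7, Tff2 and Gabrp were also higher in every PBS_ND lung than in any PBS_NW or PBS_DMSO lung. Scgb3a2 stood at 7227 to 10946 TPM in PBS_ND, 1675 to 2433 in PBS_NW and 1138 to 2171 in PBS_DMSO. Gabrp stood at 258 to 361, 38.9 to 75.7 and 37.2 to 53.3 TPM in the same groups. The other genes overlapped between these groups. The tables were normalized separately, so these levels are side by side and were not tested. How far changes against PBS_ND measure injury was not tested. BLM_DMSO replicate 3 stood apart from its group in airway genes, and results that rest on it are given with and without it.

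**Figure D1:**
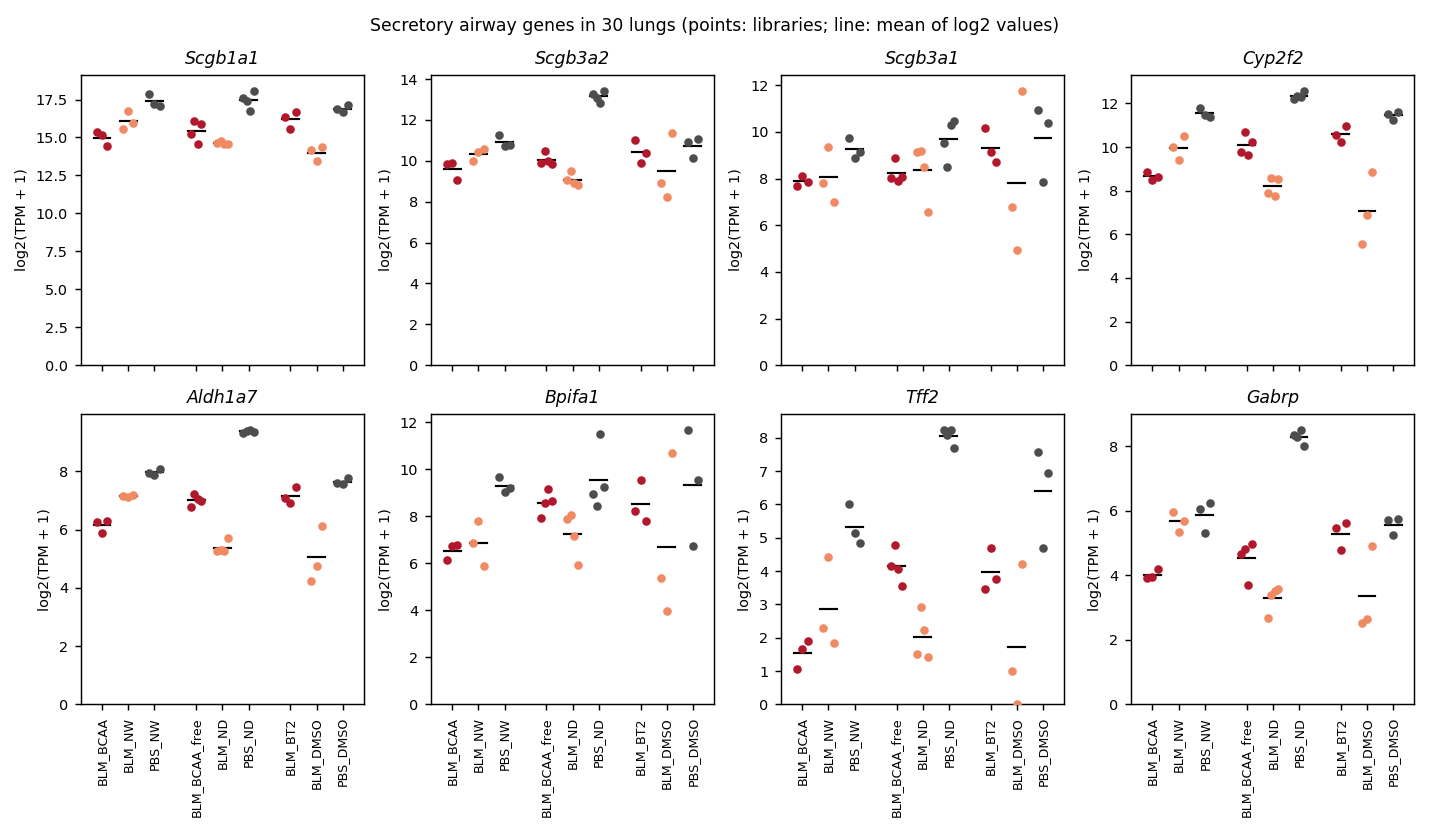
Level of each of the 8 genes in the 30 lungs, as log2(TPM + 1), one panel per gene. Points are single lungs and the line is the group mean of the log2 values, with treated bleomycin, bleomycin and PBS groups from left to right in each experiment. The PBS groups lie highest for most genes, while the Scgb3a1 and Bpifa1 points scatter widely within groups.

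Scgb1a1, the main secretoglobin of club cell secretion, held a large part of the lung transcriptome. It took 13.5% to 24.4% of all TPM in PBS_NW lungs, 10.8% to 27.3% in PBS_ND lungs and 10.3% to 14.6% in PBS_DMSO lungs, and it was the top-ranked gene in each of these 10 lungs. In the treated and bleomycin-only groups of the same experiments the share was 2.20% to 4.27% in BLM_BCAA, 4.89% to 10.9% in BLM_NW, 2.38% to 6.87% in BLM_BCAA_free, 2.40% to 2.83% in BLM_ND, 4.85% to 10.4% in BLM_BT2 and 1.12% to 2.16% in BLM_DMSO lungs. In every bleomycin-only lung the share was under that of every PBS lung of the same experiment. Of all genes tested, 14.5%, 12.3% and 18.7% were likewise wholly lower in the water, diet and BT2 experiments. Because TPM is a share, a gene of this size moves the scale for all the others. Median centring of the libraries moved the all-gene median by -0.56 on the log2 scale for BLM_ND against PBS_ND, by -0.44 for BLM_BCAA_free against PBS_ND, by 0.13 for BLM_BCAA_free against BLM_ND, by -0.11 for BLM_BT2 against BLM_DMSO, by -0.10 for BLM_BT2 against PBS_DMSO and by -0.10 for BLM_BCAA against PBS_NW. The direction of none of the 8 genes turned under centring or after rescaling without Scgb1a1 and mitochondrial transcripts.

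**Figure D2:**
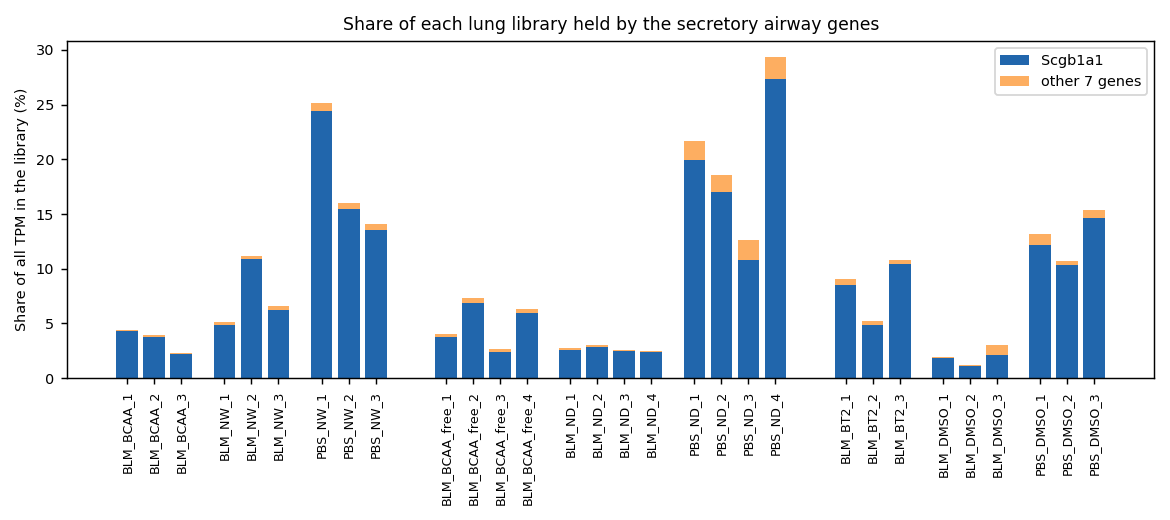
Share of all TPM, in percent, taken by Scgb1a1 and by the other 7 genes together in each of the 30 lungs, as stacked bars from 0. PBS lungs stand highest, up to 27.3% for Scgb1a1 in PBS_ND replicate 4, and BLM_DMSO lungs lowest, down to 1.12%.

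In the water experiment, all 8 genes had their highest mean in PBS_NW, an intermediate mean in BLM_NW and their lowest in BLM_BCAA. Of the 8 genes, 5 fell in BLM_NW against PBS_NW lungs (limma on log2(TPM + 1), Benjamini-Hochberg adjusted over all 17209 genes tested), where 7.08% of all genes tested fell. Their median log2 change was -1.26, beside 0.09 over all genes. In whole lungs, fewer cells of a type and less RNA per cell cannot be told apart. As deposited, 2555 of all genes (14.8%) were higher and 1218 lower, and after median centring 2462 were higher and 2116 lower. Rescaled without Scgb1a1 and mitochondrial transcripts, 1850 were higher and 2298 lower, so this balance depends on the scaling.

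Among the secretoglobins, Scgb1a1 took 4.27%, 3.73% and 2.20% of all TPM in BLM_BCAA lungs, 4.89%, 10.9% and 6.23% in BLM_NW lungs and 24.4%, 15.4% and 13.5% in PBS_NW lungs. The 3 groups did not overlap. Of all genes tested, 14.5% were wholly lower in BLM_NW than in PBS_NW lungs, and 8.13% in BLM_BCAA than in BLM_NW lungs. For Scgb1a1, BLM_NW against PBS_NW gave a log2 change of -1.31 ± 0.38 (SE), with an adjusted p of 0.0308 by limma. It became 0.0869 under median centring and 0.0546 with only the compared groups fitted. Without PBS_NW replicate 1 or 2 or BLM_NW replicate 1 or 3 it was 0.0675 to 0.119, and 4 of the 8 genes passed in each case. Without PBS_NW replicate 3 the count stayed at 5, and without BLM_NW replicate 2 it was 6. With no filter on low values, Scgb1a1 lost its call in each of the 6 comparisons of the study in which it passed, with adjusted p from 0.271 to 0.660. Scgb3a2, a secretoglobin of the same cells, stood at 922, 957 and 531 TPM in BLM_BCAA lungs, at 1034, 1365 and 1526 TPM in BLM_NW lungs and at 2433, 1675 and 1773 TPM in PBS_NW lungs. These groups too were ordered without overlap, yet BLM_NW against PBS_NW did not pass the test (log2 change -0.58 ± 0.25, adjusted p = 0.121). Scgb3a1, a secretoglobin of the larger airways, stood at 202, 276 and 232 TPM in BLM_BCAA lungs, at 223, 652 and 127 TPM in BLM_NW lungs and at 861, 476 and 562 TPM in PBS_NW lungs. BLM_NW replicate 2 reached into the PBS_NW range, and the difference did not pass (log2 change -1.21 ± 0.47, adjusted p = 0.0889).

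Cyp2f2, the club cell cytochrome P450 that oxidizes naphthalene, stood at 461, 361 and 400.0 TPM in BLM_BCAA lungs, at 1026, 676 and 1453 TPM in BLM_NW lungs and at 3534, 2874 and 2690 TPM in PBS_NW lungs. No value of one group reached another, beside 14.5% of all genes wholly lower in BLM_NW than in PBS_NW and 8.13% in BLM_BCAA than in BLM_NW. Aldh1a7, an aldehyde dehydrogenase, stood at 76.1, 58.3 and 76.8 TPM in BLM_BCAA lungs, at 139.9, 139 and 146 TPM in BLM_NW lungs and at 242, 233 and 271 TPM in PBS_NW lungs. Again no value of one group reached another. In BLM_NW against PBS_NW, Cyp2f2 fell by 1.59 ± 0.25 (SE) on the log2 scale (adjusted p = 0.00137), and Aldh1a7 fell by 0.81 ± 0.14 (adjusted p = 0.00238). Aldh1a7 has a close paralogue in mouse, Aldh1a1, and the sources used here do not say how reads were divided between near-identical genes.

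Bpifa1, a secreted defence and surfactant protein of the airways, stood at 68.7, 105 and 108 TPM in BLM_BCAA lungs, at 117, 223 and 57.5 TPM in BLM_NW lungs and at 824, 525 and 584 TPM in PBS_NW lungs. Tff2, a trefoil peptide of mucosal repair, stood at 1.09, 2.14 and 2.74 TPM in BLM_BCAA lungs, at 3.89, 20.4 and 2.58 TPM in BLM_NW lungs and at 63.0, 34.0 and 27.4 TPM in PBS_NW lungs. For both genes every bleomycin lung was under every PBS_NW lung, while the BLM_BCAA and BLM_NW values interleaved. Of all genes tested, 14.5% were wholly lower in BLM_NW and 16.1% in BLM_BCAA, each against PBS_NW. BLM_NW against PBS_NW gave log2 changes of -2.45 ± 0.40 for Bpifa1 (adjusted p = 0.00175) and -2.47 ± 0.57 for Tff2 (adjusted p = 0.0109). Gabrp, the pi subunit of the GABA-A receptor, behaved otherwise: it stood at 14.3, 14.4 and 17.3 TPM in BLM_BCAA lungs, at 62.1, 39.9 and 50.6 TPM in BLM_NW lungs and at 65.6, 38.9 and 75.7 TPM in PBS_NW lungs. BLM_NW and PBS_NW overlapped for Gabrp (log2 change -0.20 ± 0.24, adjusted p = 0.576), while each BLM_BCAA lung was lower than all of them. Against BLM_NW, 8.13% of all genes tested were wholly lower in BLM_BCAA.

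With BCAA in the water, 3 of the 8 genes fell in BLM_BCAA against BLM_NW lungs, where 0.331% of all genes tested fell. The log2 change was -1.65 ± 0.24 for Gabrp (adjusted p = 0.0158), -1.30 ± 0.25 for Cyp2f2 (adjusted p = 0.0352) and -1.01 ± 0.14 for Aldh1a7 (adjusted p = 0.0149). The estimates of the other 5 were negative too, from -0.17 ± 0.47 for Scgb3a1 to -1.31 ± 0.57 for Tff2, and did not pass; the median of the 8 was -1.04, beside 0.03 over all genes. The count of 3 was not stable to single lungs: it was 0 without BLM_NW replicate 3, 1 without BLM_BCAA replicate 1 or replicate 2, and 2 without BLM_BCAA replicate 3 or BLM_NW replicate 1. As deposited, 150 of all genes (0.872%) were higher and 57 lower, and after centring 214 were higher and 134 lower. After rescaling 98 were higher and 106 lower.

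Against PBS_NW, all 8 genes fell in BLM_BCAA lungs, where 11.1% of all genes tested fell, with log2 changes from -1.31 ± 0.25 for Scgb3a2 to -3.78 ± 0.57 for Tff2. Scgb3a1 had the weakest call (adjusted p = 0.0418), and with any 1 lung of either group left out 7 of the 8 passed. In none of the 8 genes did a BLM_BCAA lung reach a PBS_NW lung, as was so for 16.1% of all genes tested. Among all genes 3906 (22.7%) were higher and 1909 lower as deposited, and 3472 were higher and 3115 lower after centring. After rescaling 2454 were higher and 4164 lower. BLM_NW and BLM_BCAA share these PBS_NW lungs. In BLM_BCAA lungs the mean of Cyp2f2 was at 13.4%, of Tff2 at 4.80% and of Gabrp at 25.5% of the PBS_NW mean, and in BLM_NW lungs Cyp2f2 was at 34.7%, Tff2 at 21.6% and Gabrp at 84.7%.

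In the diet experiment, 7 of the 8 genes fell in BLM_ND against PBS_ND lungs, where 12.3% of all 18593 genes tested fell. Their median log2 change was -4.03, beside 0.56 over all genes. For 7 of the 8 genes the mean was highest in PBS_ND, intermediate in BLM_BCAA_free and lowest in BLM_ND, the exception being Scgb3a1. Among all genes 9047 (48.7%) were higher and 2281 lower as deposited, and 4515 were higher and 4696 lower after centring. After rescaling 5678 were higher and 4079 lower.

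Scgb1a1 took 3.76%, 6.87%, 2.38% and 6.00% of all TPM in BLM_BCAA_free lungs, 2.57%, 2.83%, 2.46% and 2.40% in BLM_ND lungs and 19.9%, 17.0%, 10.8% and 27.3% in PBS_ND lungs. BLM_ND lungs were the tightest set, and one BLM_BCAA_free lung, replicate 3, fell below them. Scgb3a2 stood at 949.5, 1453, 1007 and 933 TPM in BLM_BCAA_free lungs, at 534, 733, 485 and 451 TPM in BLM_ND lungs and at 10040.5, 8751, 7227 and 10946 TPM in PBS_ND lungs, with no overlap between groups. Of all genes tested, 12.3% were wholly lower in BLM_ND than in PBS_ND, and 6.05% wholly higher in BLM_BCAA_free than in BLM_ND. In BLM_ND against PBS_ND, the log2 change was -2.80 ± 0.38 for Scgb1a1 (adjusted p = 3.92e-05) and -4.08 ± 0.21 for Scgb3a2 (adjusted p = 1.78e-08). Scgb3a1 stood at 258, 477, 235 and 271 TPM in BLM_BCAA_free lungs, at 564, 585, 355 and 94.8 TPM in BLM_ND lungs and at 745, 358, 1268 and 1435 TPM in PBS_ND lungs. BLM_ND and PBS_ND overlapped, and the log2 change of -1.36 ± 0.56 lay just outside the threshold (adjusted p = 0.0521); under median centring it passed at -1.92 (adjusted p = 0.0148).

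Cyp2f2 stood at 869, 1659, 788 and 1197 TPM in BLM_BCAA_free lungs, at 239.7, 385, 214 and 372 TPM in BLM_ND lungs and at 4705, 5151, 5087 and 6087 TPM in PBS_ND lungs. Aldh1a7 stood at 109, 149, 132 and 126 TPM in BLM_BCAA_free lungs, at 37.6, 38.5, 37.1 and 51.1 TPM in BLM_ND lungs and at 643, 674, 679.8 and 651 TPM in PBS_ND lungs. Both enzymes split the 3 groups without overlap. The shares of all genes doing so were 12.3% (BLM_ND under PBS_ND) and 6.05% (BLM_BCAA_free above BLM_ND). Against PBS_ND, BLM_ND lungs had Cyp2f2 lower, with a log2 change of -4.15 ± 0.26 (adjusted p = 6.14e-08) and Aldh1a7 lower, with a log2 change of -3.99 ± 0.13 (adjusted p = 1.59e-09).

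Tff2 stood at 16.9, 26.8, 15.9 and 10.8 TPM in BLM_BCAA_free lungs, at 1.84, 6.53, 3.73 and 1.66 TPM in BLM_ND lungs and at 298, 270.3, 297 and 205 TPM in PBS_ND lungs. Gabrp stood at 24.3, 26.9, 12.1 and 30.6 TPM in BLM_BCAA_free lungs, at 5.41, 9.44, 10.4 and 11.0 TPM in BLM_ND lungs and at 325, 309, 361 and 258 TPM in PBS_ND lungs. Both again separated the 3 groups, beside 12.3% of all genes wholly lower in BLM_ND than in PBS_ND and 6.05% wholly higher in BLM_BCAA_free than in BLM_ND. Tff2 had the largest change of the 8 genes in BLM_ND against PBS_ND, -6.04 ± 0.33 on the log2 scale (adjusted p = 2.52e-08), with Gabrp at -4.99 ± 0.27 (adjusted p = 2.52e-08). By rank among all genes, Tff2 stood between 11456 and 15795 in BLM_ND lungs and between 349 and 411 in PBS_ND lungs. Bpifa1 stood at 246, 379.5, 565 and 404 TPM in BLM_BCAA_free lungs, at 234, 265, 141 and 59.9 TPM in BLM_ND lungs and at 492, 348, 2899 and 608 TPM in PBS_ND lungs. It fell by 2.28 ± 0.61 in BLM_ND against PBS_ND (adjusted p = 0.00597), and BLM_BCAA_free overlapped with both other groups.

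On the BCAA-free diet, 5 of the 8 genes rose in BLM_BCAA_free against BLM_ND lungs, where 4.02% of all genes tested rose. Tff2 rose by 2.13 ± 0.33 on the log2 scale (adjusted p = 0.00175), Cyp2f2 by 1.88 ± 0.26 (adjusted p = 0.000828), Aldh1a7 by 1.63 ± 0.13 (adjusted p = 6.82e-05), Gabrp by 1.25 ± 0.27 (adjusted p = 0.0125) and Scgb3a2 by 0.98 ± 0.21 (adjusted p = 0.0112). For these 5 genes every BLM_BCAA_free lung was above every BLM_ND lung, as was so for 6.05% of all genes tested. Bpifa1 at 1.33 ± 0.61 (adjusted p = 0.196), Scgb1a1 at 0.77 ± 0.38 (adjusted p = 0.225) and Scgb3a1 at -0.13 ± 0.56 (adjusted p = 0.911) did not pass. The median of the 8 was 1.29, beside -0.09 over all genes. Without BLM_BCAA_free replicate 3, the lung of its group richest in mitochondrial transcripts, Scgb1a1 passed too at 1.07 (adjusted p = 0.034), and 6 of 8 rose. Calls over all genes, in either direction, ran from 903 to 2779 with 1 lung left out, against 1885 with all lungs. As deposited, 748 of all genes were higher and 1137 (6.12%) lower, and after centring 1380 were higher and 1095 lower. After rescaling 1087 were higher and 1143 lower.

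The treated lungs remained far from PBS_ND, with 7 of the 8 genes lower in BLM_BCAA_free against PBS_ND, where 12.5% of all genes tested fell, and a median of -2.32 beside 0.43 over all genes. The exception was Bpifa1 (log2 change -0.95 ± 0.61, adjusted p = 0.205). Scgb3a1 passed with overlapping groups (log2 change -1.49 ± 0.56, adjusted p = 0.0397), and its call was lost with no filter (adjusted p = 0.0889) and without any 1 of 6 of the 8 lungs, namely PBS_ND replicate 1, 3 or 4 or BLM_BCAA_free replicate 1, 3 or 4 (adjusted p from 0.0612 to 0.116). In BLM_BCAA_free lungs the mean of Cyp2f2 was at 21.5%, of Aldh1a7 at 19.5% and of Scgb3a2 at 11.7% of the PBS_ND mean, and in BLM_ND lungs Cyp2f2 was at 5.76%, Aldh1a7 at 6.21% and Scgb3a2 at 5.96%. Each of these genes stood higher in PBS_ND than in the other uninjured lungs, and how far the percents measure injury was not tested. Among all genes 7864 (42.3%) were higher and 2322 lower as deposited, and 4646 were higher and 4767 lower after centring. After rescaling 5441 were higher and 4343 lower.

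**Figure D3:**
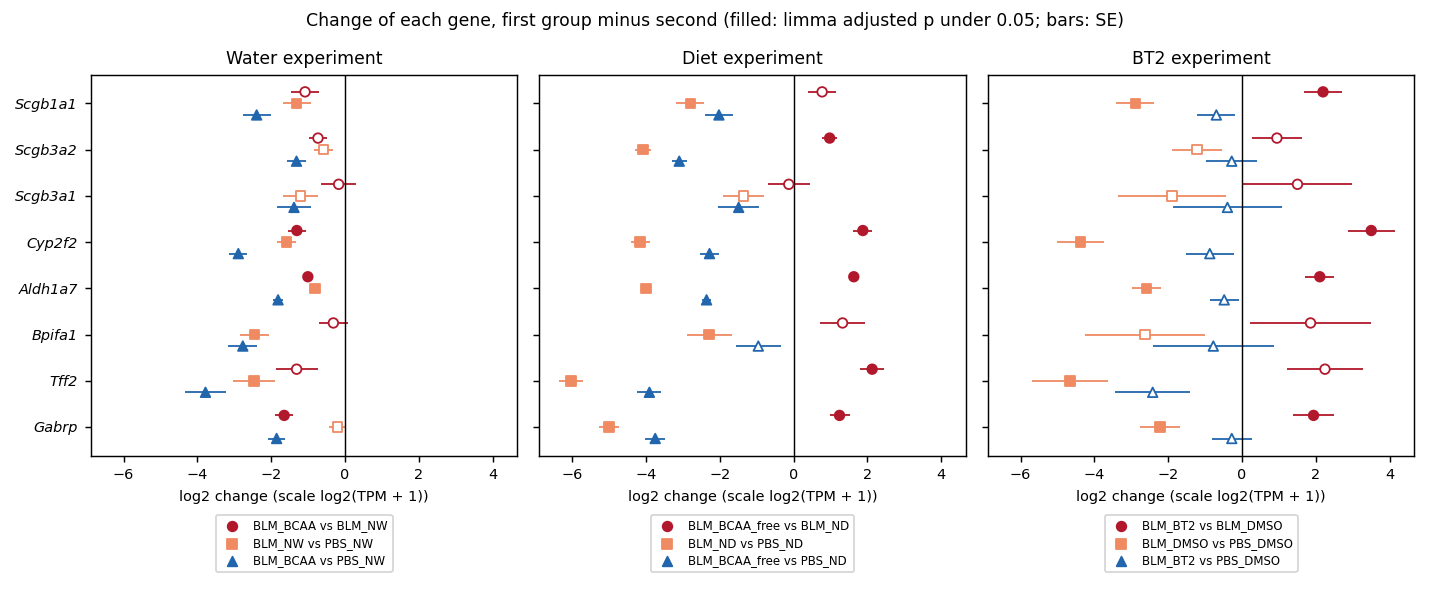
Log2 change ± SE of each of the 8 genes in the 9 comparisons, one panel per experiment, from limma on log2(TPM + 1); filled symbols passed at an adjusted p under 0.05. Circles (treated against bleomycin) lie below 0 in the water experiment and mostly above 0 in the diet and BT2 experiments, while squares (bleomycin against PBS) lie below 0 for all 8 genes in each experiment.

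In the BT2 experiment, 5 of the 8 genes fell in BLM_DMSO against PBS_DMSO lungs, where 13.3% of all 18151 genes tested fell, with a median of -2.61 beside -0.02 over all genes. Scgb1a1 took 8.52%, 4.85% and 10.4% of all TPM in BLM_BT2 lungs, 1.86%, 1.12% and 2.16% in BLM_DMSO lungs and 12.1%, 10.3% and 14.6% in PBS_DMSO lungs. The share in 1 BLM_BT2 lung, replicate 3, reached the lower end of the PBS_DMSO range, and no BLM_DMSO lung came near either group. Cyp2f2 stood at 1498, 1221 and 2000.1 TPM in BLM_BT2 lungs, at 45.9, 117 and 456 TPM in BLM_DMSO lungs and at 2953, 2428 and 3142 TPM in PBS_DMSO lungs. Aldh1a7 stood at 133, 120.1 and 177 TPM in BLM_BT2 lungs, at 18.1, 25.9 and 69.5 TPM in BLM_DMSO lungs and at 191, 188 and 216 TPM in PBS_DMSO lungs. Both enzymes were lowest in BLM_DMSO without overlap, as 18.7% of all genes tested were against PBS_DMSO and 17.2% against BLM_BT2. BLM_DMSO replicate 3 was the highest lung of its group for each enzyme. In BLM_DMSO against PBS_DMSO, the log2 change was -4.38 ± 0.64 for Cyp2f2 (adjusted p = 0.00135), -2.89 ± 0.52 for Scgb1a1 (adjusted p = 0.00336) and -2.59 ± 0.39 for Aldh1a7 (adjusted p = 0.00157). Under median centring the Scgb1a1 call was lost (adjusted p = 0.0522), leaving 4 genes.

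Gabrp stood at 43.1, 26.9 and 48.4 TPM in BLM_BT2 lungs, at 4.78, 5.25 and 28.9 TPM in BLM_DMSO lungs and at 51.1, 37.2 and 53.3 TPM in PBS_DMSO lungs. Tff2 stood at 10.1, 24.9 and 12.6 TPM in BLM_BT2 lungs and at 189.7, 24.7 and 122 TPM in PBS_DMSO lungs, while BLM_DMSO lungs 1 and 3 had 0.988 and 17.4 TPM and BLM_DMSO lung 2 was listed at 0. In both genes BLM_DMSO replicate 3 reached the BLM_BT2 range and the other BLM_DMSO lungs did not. BLM_DMSO against PBS_DMSO gave log2 changes of -2.22 ± 0.54 for Gabrp (adjusted p = 0.0139) and -4.67 ± 1.02 for Tff2 (adjusted p = 0.00846).

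The remaining 3 genes overlapped between all groups. Scgb3a1 stood at 1143, 556 and 416 TPM in BLM_BT2 lungs, at 109, 29.6 and 3458 TPM in BLM_DMSO lungs and at 1967, 232 and 1319 TPM in PBS_DMSO lungs. Bpifa1 stood at 303, 752 and 224 TPM in BLM_BT2 lungs, at 40.9, 14.7 and 1644 TPM in BLM_DMSO lungs and at 3238, 106 and 743 TPM in PBS_DMSO lungs. Scgb3a2 stood at 2093, 961 and 1319 TPM in BLM_BT2 lungs, at 479.7, 295 and 2614 TPM in BLM_DMSO lungs and at 1919, 1138 and 2171 TPM in PBS_DMSO lungs. BLM_DMSO replicate 3 was above every PBS_DMSO lung for Scgb3a1 and Scgb3a2, while its Scgb1a1 share of 2.16% and its Cyp2f2 level of 456 TPM stayed under all of them. None of these 3 genes passed in BLM_DMSO against PBS_DMSO (adjusted p of 0.355 for Scgb3a1, 0.248 for Bpifa1 and 0.203 for Scgb3a2). Without BLM_DMSO replicate 3, all 8 genes fell in BLM_DMSO against PBS_DMSO. PBS_DMSO replicate 2 was the lowest lung of its group for all 8 genes, and without it 5 of 8 fell. As deposited, 3132 of all genes (17.3%) were higher and 2418 lower. After median centring 3368 were higher and 3190 lower, and after rescaling without Scgb1a1 and mitochondrial transcripts 2414 were higher and 3604 lower.

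With BT2, 4 of the 8 genes rose in BLM_BT2 against BLM_DMSO lungs, where 6.34% of all genes tested rose, and the median of the 8 was 2.02 beside 0.12 over all genes. Cyp2f2 rose by 3.50 ± 0.64 (adjusted p = 0.0151), Scgb1a1 by 2.19 ± 0.52 (adjusted p = 0.0298), Aldh1a7 by 2.11 ± 0.39 (adjusted p = 0.0161) and Gabrp by 1.94 ± 0.54 (adjusted p = 0.0479) on the log2 scale. The other 4 had positive estimates, from 0.95 ± 0.69 for Scgb3a2 to 2.25 ± 1.02 for Tff2, that did not pass. These are changes of mean log2 values; the arithmetic mean in BLM_BT2 was 0.588 times that in BLM_DMSO for Scgb3a1 and 0.752 times for Bpifa1, and with library weights the estimates of Scgb3a1, Bpifa1 and Scgb3a2 were negative. The Scgb1a1 call was lost under median centring (adjusted p = 0.167). The count was 7 without BLM_DMSO replicate 3, 2 without BLM_DMSO replicate 1 and 0 without BLM_BT2 replicate 1 or replicate 3. It was 0 with only the compared groups fitted. Calls over all genes, in either direction, ran from 124 to 4927 with 1 lung left out, against 2133 with all lungs. The share of 6.34% therefore holds for the fit of all lungs only. Among all genes 1151 were higher and 982 (5.41%) lower as deposited. After centring 1652 were higher and 1663 lower, and after rescaling 1664 were higher and 791 lower.

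Against PBS_DMSO, 0 of the 8 genes passed by limma in BLM_BT2 lungs and 1, Tff2, had an unadjusted p under 0.05, where 5.3% of all genes tested were called, 4.13% higher and 1.17% lower. With library weights Tff2 passed (log2 change -2.86, adjusted p = 0.0239), and with only the compared groups fitted Cyp2f2 passed (log2 change -0.87, adjusted p = 0.0322). All 8 estimates were negative, with a median of -0.59 beside 0.09 over all genes, and for Cyp2f2 and Aldh1a7 every BLM_BT2 lung was under every PBS_DMSO lung, as was so for 12.7% of all genes tested. In BLM_BT2 lungs the mean of Aldh1a7 was at 72.2%, of Scgb1a1 at 64.2%, of Cyp2f2 at 55.4% and of Tff2 at 14.2% of the PBS_DMSO mean, and in BLM_DMSO lungs Aldh1a7 was at 19.1%, Scgb1a1 at 13.9%, Cyp2f2 at 7.26% and Tff2 at 5.47%. A difference that misses the threshold here does not show that BLM_BT2 and PBS_DMSO lungs were alike, since the SE of the change was 0.39 to 1.63 across the 8 genes. The diet and BT2 experiments differ in bleomycin dose, day and treatment, and their changes were not tested against each other.

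Other club cell genes, such as reductases, lipid enzymes and surface proteins, were taken as a list of 16. They fell in BLM_NW against PBS_NW lungs for 11 of the 16, with 2 higher and a median of -1.19 beside 0.09 over all genes, and in BLM_BCAA against BLM_NW lungs for 3 of 16, with a median of -0.51. In the diet experiment 16 of 16 fell in BLM_ND against PBS_ND lungs, with a median of -2.66 beside 0.56, and 9 of 16 rose in BLM_BCAA_free against BLM_ND lungs, with a median of 1.05 beside -0.09. In the BT2 experiment 11 of 16 fell and 1 rose in BLM_DMSO against PBS_DMSO lungs, with a median of -2.36 beside -0.02, and 10 of 16 rose in BLM_BT2 against BLM_DMSO lungs, with a median of 1.44 beside 0.12. Without BLM_DMSO replicate 3 these last counts became 14 lower with 1 higher, and 14 higher. With all lungs, 7.08%, 0.331% and 12.3% of all genes fell in the first 3 of these comparisons. In the comparisons that followed, 4.02% rose with the diet, 13.3% fell in BLM_DMSO and 6.34% rose with BT2. With 1 lung left out, calls over all genes ran from 3303 to 7027 for BLM_DMSO against PBS_DMSO. They ran from 124 to 4927 for BLM_BT2 against BLM_DMSO. Against the PBS lungs, 12 of 16 fell in BLM_BCAA, 13 of 16 fell and 1 rose in BLM_BCAA_free, and 1 of 16 fell and 1 rose in BLM_BT2. Among all genes, 11.1% fell in BLM_BCAA, 12.5% fell and 42.3% rose in BLM_BCAA_free, and 1.17% fell and 4.13% rose in BLM_BT2.

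Cbr2, a carbonyl reductase abundant in mouse lung, averaged 5588 ± 1283 TPM in BLM_BCAA_free, 1074 ± 242 TPM in BLM_ND and 16520.2 ± 972 TPM in PBS_ND lungs (SD, n = 4 each). It rose by 2.38 in BLM_BCAA_free against BLM_ND on the log2 scale (adjusted p = 0.00011) and fell in BLM_BCAA against BLM_NW lungs, where it averaged 1229 ± 98.0 TPM in BLM_BCAA against 3013 ± 599 TPM in BLM_NW (log2 change -1.28, adjusted p = 0.017). Pon1, a lactonase, averaged 25.8 ± 11.6 TPM in BLM_BT2 against 2.17 ± 2.22 TPM in BLM_DMSO lungs (log2 change 3.19, adjusted p = 0.0086). Cckar, a cholecystokinin receptor, was one of the 2 genes of the list higher in BLM_NW than in PBS_NW, at 32.1 ± 4.37 TPM in BLM_NW against 15.8 ± 2.54 TPM in PBS_NW (adjusted p = 0.0016), the other being Upk3a. Cckar fell in BLM_ND against PBS_ND lungs, to 5.74 ± 1.90 TPM in BLM_ND against 262 ± 24.3 TPM in PBS_ND (log2 change -5.32, adjusted p = 8.7e-09). Cyp4b1, a cytochrome P450, was the gene of the list higher in BLM_BCAA_free than in PBS_ND (log2 change 0.62, adjusted p = 0.017), a call lost under centring and rescaling.

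Goblet cell and mucous genes summed to between 9.94 and 637 TPM per lung. They fell for 2 of 8 genes in BLM_NW, with 1 higher, for 7 of 10 in BLM_ND, with 1 higher, and for 3 of 9 in BLM_DMSO lungs, each against its PBS group. Among all genes, 7.08% fell and 14.8% rose in BLM_NW, 12.3% fell and 48.7% rose in BLM_ND, and 13.3% fell in BLM_DMSO. Muc5b, the airway mucin that club cells also make, averaged 2.85 ± 1.72 TPM in BLM_NW against 24.5 ± 4.84 TPM in PBS_NW lungs (log2 change -2.80, adjusted p = 0.00014). Between treated and bleomycin-only lungs, 0 of 8 goblet genes changed with BCAA water, 1 rose and 1 fell of 10 with the BCAA-free diet, and 0 of 9 changed with BT2 by limma. With the diet, 4.02% of all genes rose and 6.12% fell. Without BLM_DMSO replicate 3, 4 of 8 goblet genes rose with BT2, where calls over all genes ran from 124 to 4927 with 1 lung left out. The gene that rose with the diet was Bpifb1, a secreted protein related to Bpifa1, at 41.1 ± 20.9 TPM in BLM_BCAA_free against 10.4 ± 7.46 TPM in BLM_ND lungs (adjusted p = 0.032), and the one that fell was Agr2, a disulfide isomerase needed for mucin folding, at 3.64 ± 2.03 TPM in BLM_BCAA_free against 14.2 ± 5.20 TPM in BLM_ND lungs (adjusted p = 0.014).

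Of 14 transcription factors and Notch genes of airway secretory cells, 8 fell and 5 rose in BLM_ND against PBS_ND, where 12.3% of all genes fell and 48.7% rose. In BLM_NW against PBS_NW 5 of the 14 fell and 1 rose, where 7.08% of all genes fell and 14.8% rose, and in BLM_DMSO against PBS_DMSO 7 fell, where 13.3% of all genes fell. Sox2, a factor that marks the conducting airway, averaged 11.8 ± 1.78 TPM in BLM_ND against 104 ± 16.7 TPM in PBS_ND lungs (log2 change -3.03, adjusted p = 6.9e-07). Foxa1, a forkhead factor of the airway epithelium, rose in BLM_BCAA_free against BLM_ND lungs, at 37.7 ± 8.18 TPM in BLM_BCAA_free against 16.7 ± 2.75 TPM in BLM_ND lungs (adjusted p = 0.0031). Nkx2-1, the lung lineage factor also made by alveolar type 2 cells, rose in BLM_BT2 against BLM_DMSO lungs, at 252 ± 43.8 TPM in BLM_BT2 against 92.2 ± 52.4 TPM in BLM_DMSO lungs (adjusted p = 0.023). In each of these 2 treatments 2 of 14 genes of the list rose, beside 4.02% of all genes with the diet and 6.34% with BT2. With BCAA water 0 of 14 changed by limma. These counts moved with single lungs: 7 of 14 rose with the diet without BLM_BCAA_free replicate 3, and 7 of 14 rose with BT2 without BLM_DMSO replicate 3. Calls over all genes moved too with 1 lung left out, from 903 to 2779 with the diet and from 124 to 4927 with BT2.

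Markers of other cells moved beside the club genes. Ciliated cell markers fell for 8 of 17 genes in BLM_NW against PBS_NW (median -0.46) and 18 of 18 in BLM_ND against PBS_ND (median -2.82). They fell for 4 of 18 in BLM_DMSO against PBS_DMSO lungs (median -1.42), beside 7.08%, 12.3% and 13.3% of all genes in these comparisons. Their summed level was 583 to 1359 TPM in BLM_BCAA_free, 544 to 808 TPM in BLM_ND and 4137 to 5223 TPM in PBS_ND lungs. Of 18 ciliated markers, 9 rose in BLM_BCAA_free against BLM_ND and 1 rose in BLM_BT2 against BLM_DMSO, while 0 of 17 changed in BLM_BCAA against BLM_NW lungs. Among all genes 4.02% rose with the diet and 6.34% with BT2, so the 1 of 18 is near the background. Without BLM_BCAA_free replicate 3, whose ciliated sum was the lowest of its group, 15 of 18 rose with the diet. In BLM_DMSO the ciliated sum was 353, 438 and 2192 TPM, with replicate 3 again apart. Without it 17 of 17 fell against PBS_DMSO and 17 of 17 rose with BT2. The all-gene shares above are for all lungs. With 1 lung left out, calls over all genes ran from 903 to 2779 with the diet and from 124 to 4927 with BT2. They ran from 3303 to 7027 for BLM_DMSO against PBS_DMSO. Ccdc153, a gene of ciliated cells, averaged 42.8 ± 10.1 TPM in BLM_ND against 474 ± 49.8 TPM in PBS_ND lungs.

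Alveolar markers did not follow one course across the experiments. Alveolar type 2 markers, led by surfactant genes, rose for 5 of 9 genes and fell for 1 in BLM_ND against PBS_ND (4 and 3 after centring), fell for 6 of 9 in BLM_DMSO against PBS_DMSO, and rose for 2 of 9 in BLM_NW against PBS_NW lungs. The shares of all genes were 48.7% higher in BLM_ND, 13.3% lower in BLM_DMSO and 14.8% higher in BLM_NW, so the BLM_ND and BLM_NW counts are near the background, and the 6 of 9 in BLM_DMSO became 3 of 9 without PBS_DMSO replicate 2. Type 2 markers rose for 8 of 9 genes with the BCAA-free diet and for 9 of 9 with BT2, each against bleomycin alone. They fell for 2 of 9 with BCAA water, beside 4.02%, 6.34% and 0.331% of all genes in these comparisons. Sftpc, the surfactant protein C gene, averaged 51544 ± 14709.5 TPM in BLM_BT2 against 7060.2 ± 5286 TPM in BLM_DMSO lungs (log2 change 3.27, adjusted p = 0.022). Alveolar type 1 markers rose for 6 of 7 genes in BLM_ND against PBS_ND lungs, beside 48.7% of all genes. Cardiac genes fell for 8 of 8 in BLM_ND and 7 of 7 in BLM_DMSO lungs, each against its PBS group, and leukocyte genes rose for 6 of 6 in BLM_ND and 3 of 6 in BLM_DMSO lungs. Among all genes 12.3% fell and 48.7% rose in BLM_ND, and 13.3% fell and 17.3% rose in BLM_DMSO. Cardiac genes also rose for 4 of 8 with the BCAA-free diet (median 1.03) and 3 of 7 with BT2 (median 1.09), each against bleomycin alone. These markers differ with the groups as the 8 genes do, and their part in the 8 genes' changes was not tested.

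**Figure D4:**
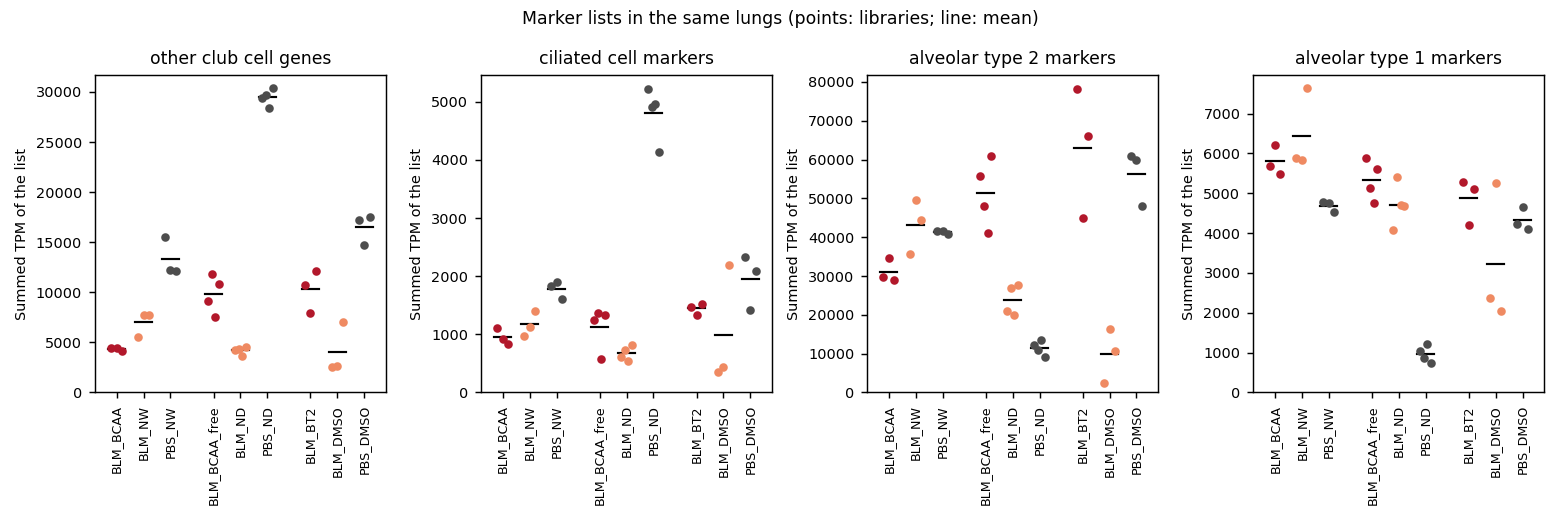
Summed TPM of 4 marker lists (other club cell genes, ciliated, alveolar type 2 and alveolar type 1 markers) in each of the 30 lungs, with treated, bleomycin and PBS groups from left to right in each experiment. Other club cell and ciliated sums are highest in PBS_ND lungs, where alveolar type 1 sums are lowest.

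Across all 30 lungs, the genes whose pattern was most like the mean profile of the 8 genes, out of 13959 genes compared after each gene's mean in its table was subtracted, with predicted and Rik symbols left out, were Stk33 (r = 0.966), Cfap70 (r = 0.960), Iqca (r = 0.960), Chad (r = 0.959) and Lypd2 (r = 0.953). These values are over the lungs of all 9 groups, so differences between injured and uninjured groups enter them, and they carry no test. Stk33 averaged 12.2 ± 2.41 TPM in BLM_BCAA_free, 3.84 ± 0.93 TPM in BLM_ND and 49.8 ± 6.56 TPM in PBS_ND lungs. Chad averaged 17.5 ± 0.65 TPM in BLM_BT2, 4.97 ± 6.06 TPM in BLM_DMSO and 25.9 ± 13.4 TPM in PBS_DMSO lungs. The mean profile of the ciliated markers had an r of 0.935 with that of the 8 genes over the same 30 lungs.

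Deviations of each lung from its group mean, on log2(TPM + 1), were compared for the 28 pairs of genes over 30 lungs, with p from 100000 permutations within groups and adjusted over the 28 pairs. All 28 values of Pearson's r were positive, from 0.0959 to 0.894, and 8 passed. Besides Scgb3a1 with Bpifa1 and Cyp2f2 with Aldh1a7, these were Tff2 with Bpifa1 (r = 0.845) and with Scgb3a1 (0.831), and Scgb3a1 with Scgb3a2 (0.822). The rest were Gabrp with Aldh1a7 (0.765) and with Cyp2f2 (0.7605), and Scgb1a1 with Scgb3a2 (0.565). Scgb1a1 with Scgb3a2 had r of 0.786, 0.620 and 0.685 in the water, diet and BT2 experiments. With 2 lungs left out of each pair, r was 0.480 to 0.790 for these 8. The 2 were the lungs farthest from the median of one gene of the pair, so lungs far out in the other gene could stay in. For the pairs named below, that gene was Scgb3a1, Cyp2f2 and Aldh1a7 in turn. Without the BLM_DMSO lungs 8 of the 28 were negative, and no difference between pairs was tested. Scgb3a1 and Bpifa1 deviated together (Pearson r = 0.894, adjusted p = 0.0027; Spearman rho = 0.760, adjusted p = 0.0071), with r of 0.790 without the 2 lungs farthest from the median and 0.958, 0.702 and 0.937 within the water, diet and BT2 experiments. Cyp2f2 and Aldh1a7 also deviated together (r = 0.874, adjusted p = 0.0055; rho = 0.665, adjusted p = 0.0071), but r was 0.578 without the 2 farthest lungs and 0.253, 0.621 and 0.982 by experiment, so the pooled value rests in part on the BT2 lungs. Aldh1a7 and Bpifa1 did not deviate together beyond the test (r = 0.486, adjusted p = 0.51; rho = 0.0888), with r of -0.0013 without the 2 farthest lungs and -0.258, -0.202 and 0.649 by experiment. The lung that stands apart in BLM_DMSO is high in all of these genes and is among the points farthest out.

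**Figure D5:**
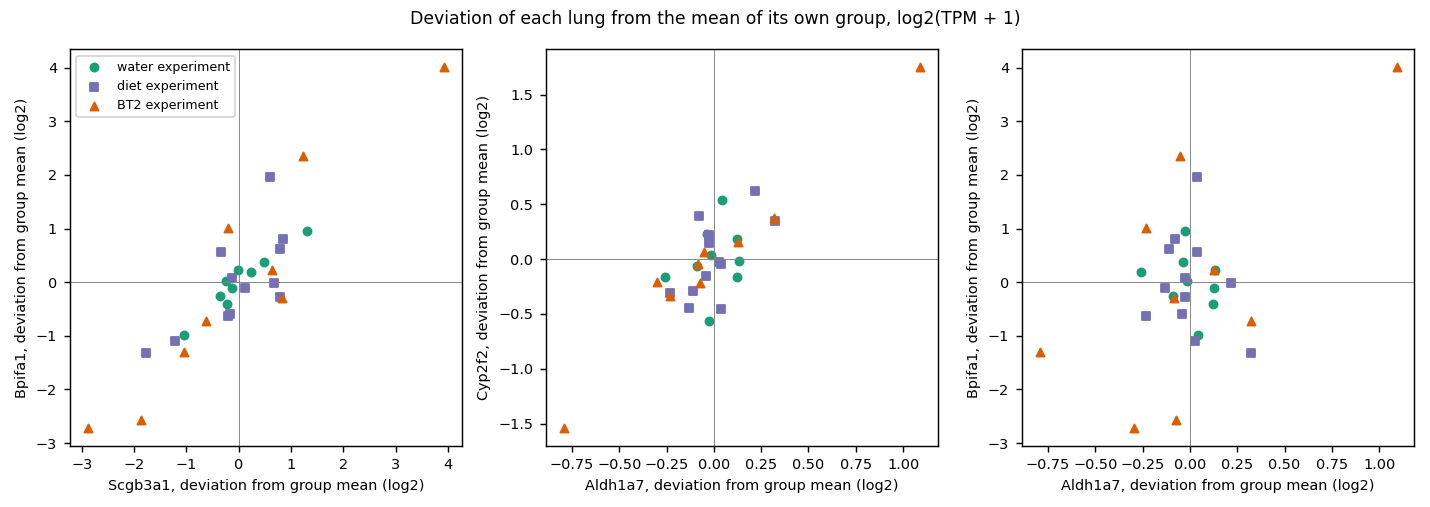
Deviation of each of the 30 lungs from its group mean, in log2(TPM + 1), for Scgb3a1 against Bpifa1, Aldh1a7 against Cyp2f2 and Aldh1a7 against Bpifa1, coloured by experiment. Scgb3a1 and Bpifa1 deviate together over the 30 lungs (r = 0.894), with r of 0.958, 0.702 and 0.937 in the water, diet and BT2 experiments. Aldh1a7 and Bpifa1 do not once the lungs farthest out in Aldh1a7 are set aside (r = -0.0013).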

How the data were processed

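Gene-level TPM values were deposited by the authors as 1 table per experiment, with 1 column per lung. The submitters' processing notes name FastQC, Trim Galore, HISAT2, featureCounts, Subread, DESeq2 and the mm39 build, without versions or roles; the annotation and the counting of multi-mapping reads are not given in the sources used here. TPM keeps no depth, so precision per gene is unknown and tests rest on the spread between lungs. Whether lungs of a group came from separate litters is not stated. The 3 tables are labelled as separate batches and were fitted separately.

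Entries that share a symbol were summed, and the filter kept genes that reached 1 TPM in 3 or more libraries. log2(TPM + 1) was fitted with limma 3.58.1 in R 4.3.3 (group means, all libraries of a table, mean-variance trend), two-sided, with Benjamini-Hochberg adjustment over all genes of the table and a threshold of 0.05. Fold changes on this scale understate those of low genes such as Tff2. Scripts were tested on simulated data. Alternatives were pseudocounts of 0.1 and 0.5, no filter and a filter at 5 TPM, median centring, library weights, a replicate block, only the compared groups, and each lung left out; rescaling without Scgb1a1 and mitochondrial transcripts was added after the data were seen, as were list counts without 3 lungs that stood apart (BLM_BCAA_free replicate 3, BLM_DMSO replicate 3, PBS_DMSO replicate 2). Named beside the 8 genes were, per list and comparison, up to 3 called genes with the largest change and a mean of at least 5 TPM in a compared group, and the 5 genes most like the 8 over the lungs. The 8 genes and the lists were chosen with earlier results of these data known. Correlations and figures used scipy 1.17.1, pandas 2.3.3, numpy 2.4.6 and matplotlib 3.10.9 in Python 3.11.15. Promoters came from RefSeq, GRCm38.p6, which is not the build of the deposited tables.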

Additional observations from a re-analysis of the deposited data

Results flagged for a closer look

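Of 24 sets of 4 lungs tested with Dixon's criterion for the gap to the nearest lung over the range, 4 had a lung far from the others, and chance gives about 1 in 20. In BLM_BCAA_free lungs, replicate 2 was the far one for 2 genes: Scgb3a1 stood at 477 TPM, with the others at 235 to 271 TPM, and Scgb3a2 at 1453 TPM, with the others at 933 to 1007 TPM. In BLM_ND lungs, Aldh1a7 stood at 51.1 TPM in replicate 4, with the others at 37.1 to 38.5 TPM. In PBS_ND lungs, Bpifa1 stood at 2899 TPM in replicate 3, with the others at 348 to 608 TPM. The BLM_DMSO and other groups of 3 lungs were not tested in this way. The fibroblast libraries, which the comparisons above do not use, held signal for Aldh1a7, with a mean of 13.2 TPM in fibroblasts kept without BCAA and given PBS.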

How the results depend on the processing

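Of 72 changes (8 genes in 9 comparisons), 44 passed the test and 29 of these did so under every alternative; over 1128 recomputed values, 1033 stayed on the same side of the threshold in the same direction, 63 lost the call, 20 gained it and 12 changed sign. For BLM_BCAA against BLM_NW the 3 genes called became 1 with no filter and 5 with library weights, and 0 to 3 with 1 lung left out. For BLM_BT2 against BLM_DMSO the 4 became 2 with no filter, 0 with only the compared groups, and 0 to 7 with 1 lung left out. For BLM_BT2 against PBS_DMSO the 0 became 1 with library weights and 1 with only the compared groups. For BLM_DMSO against PBS_DMSO the 5 were 5 to 8 with 1 lung left out. Counts over all genes moved more. BLM_BCAA against BLM_NW had 207 genes called, and 124 with a pseudocount of 0.1, 45 with no filter, 348 with centring, 2500 with library weights, 64 with the replicate block, 101 with only the compared groups and 14 to 597 with 1 lung left out. BLM_NW against PBS_NW had 3773, and 6265 with library weights. BLM_BCAA_free against BLM_ND had 1885, and 5788 with weights, 1182 with only the compared groups and 903 to 2779 with 1 lung left out. BLM_BT2 against BLM_DMSO had 2133, and 819 with no filter, 3315 with centring, 5098 with weights, 232 with only the compared groups and 124 to 4927 with 1 lung left out. BLM_BT2 against PBS_DMSO had 962, and 404 with no filter, 3181 with weights, 2705 with only the compared groups and 234 to 755 with 1 lung left out. BLM_DMSO against PBS_DMSO had 3303 to 7027 with 1 lung left out. The cause of these moves was not tested, beyond the smaller number of lungs or larger number of genes that some settings bring. The signs that changed were all of uncalled values. For BLM_BCAA against BLM_NW, Scgb3a1 and Bpifa1 were at 0.59 and 0.48 with library weights and, with 1 lung left out, ran from -0.70 to 0.48 and from -0.81 to 0.16, positive without BLM_NW replicate 2. For BLM_BCAA_free against BLM_ND, Scgb3a1 ran from -0.72 to 0.15 with 1 lung left out, positive without BLM_ND replicate 1 (0.14) or 2. With library weights, Scgb3a1 was at 0.58 for BLM_DMSO against PBS_DMSO, and Scgb3a1, Scgb3a2 and Bpifa1 were at -1.42, -0.33 and -1.31 for BLM_BT2 against BLM_DMSO. For BLM_BT2 against PBS_DMSO with 1 lung left out, Scgb3a1 ran from -1.33 to 0.21 and Bpifa1 from -2.06 to 0.39, positive without PBS_DMSO replicate 1. Same-numbered lungs did not deviate together over all genes (correlations from -0.25 to 0.19). This gave no sign that the replicate numbers pair the lungs, but it cannot show whether they mark a shared litter. With the replicate block, 2 genes were called for BLM_BCAA against BLM_NW, 3 for BLM_BT2 against BLM_DMSO and 6 for BLM_BCAA_free against PBS_ND. The calls lost there were, in turn, Cyp2f2 (adjusted p = 0.0531), Scgb1a1 (0.0675) and Scgb3a1 (0.0711). TPM keeps no depth, so what depth limits could not be read from these values.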

Other observations

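In the 24 cultured lung fibroblast libraries, Scgb3a2, Bpifa1, Tff2 and Gabrp were listed at 0 in 24 of 24. Scgb1a1 was listed at 0 in 22 and reached at most 0.0511 TPM, and Scgb3a1 was listed at 0 in 13 and reached at most 0.201 TPM. The 2 enzymes were present. The labels give TGF-beta at 20 ng/mL for 48 h and the media for 24 h. In complete medium, Cyp2f2 averaged 1.36 ± 0.196 TPM with TGF-beta against 27.7 ± 0.816 TPM with PBS, and Aldh1a7 averaged 5.86 ± 0.926 TPM with TGF-beta against 10.8 ± 0.878 TPM with PBS (SD, n = 3 each). In medium without BCAA, Cyp2f2 lay between 0 and 0.330 TPM with TGF-beta, against 20.2 ± 2.83 TPM with PBS, and Aldh1a7 averaged 0.247 ± 0.135 TPM with TGF-beta against 13.2 ± 2.32 TPM with PBS. With BCAA added back to that medium, Aldh1a7 averaged 6.78 ± 0.765 TPM with TGF-beta against 11.3 ± 1.10 TPM with PBS. These differences were not tested, and the fibroblast table was normalized apart from the lung tables.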
